A study of Mus musculus with 4 samples.

Results

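The 8 genes described here, which encode ubiquitin ligases, an adaptor of such ligases and diacylglycerol kinases that act on T cell receptor signalling, were followed in CD4 T cells carrying either an empty retrovirus or one that encodes Tox. They were chosen by name as the rows of *Cblb*, *Cbl*, *Rnf128*, *Itch*, *Nedd4*, *Ndfip1*, *Dgka* and *Dgkz*, which are 8 of the 24369 genes listed, and all 8 passed the filter on low counts that left 14143 genes to test. The cells were naïve CD4 T cells from the spleens of wild-type C57BL/6 mice, whose age the sources used here do not give. They were activated with anti-CD3, anti-CD28 and IL-2 without polarizing cytokines, transduced on day 2, restimulated on day 5 and sorted for GFP. For the restimulation the paper's methods name anti-CD3 for 5 hours, while its results section names anti-CD3 together with anti-CD28. The sample labels name recombinant human anti-CD28 where the methods name recombinant human IL-2. Values of a group are given in the order replicate 1, replicate 2. There were 2 libraries of empty vector cells (EV RV) and 2 of cells given the Tox vector (Tox RV), and each group stood for 2 mice. In both groups the MSCV vector carries GFP behind an IRES, so that the sort enriched transduced cells, and Tox was driven by the vector and not by its own promoter.

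T cell anergy is a state in which a T cell that received a signal through its antigen receptor without costimulation responds poorly to the next encounter. Ubiquitin ligases and diacylglycerol kinases are among its best known effectors. CBL-B (*Cblb*), CBL (*Cbl*) and GRAIL (*Rnf128*) are ligases with a RING domain, while ITCH (*Itch*) and NEDD4 (*Nedd4*) carry a HECT domain and are recruited and switched on by the membrane adaptor NDFIP1 (*Ndfip1*). DGKα (*Dgka*) and DGKζ (*Dgkz*) phosphorylate diacylglycerol, the lipid that activates RasGRP1 and protein kinase C downstream of the receptor, and so end that signal. Most of these proteins restrain the receptor, while NEDD4 is known to promote activation by targeting CBL-B for degradation.

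The expected counts of the libraries summed to between 46989997 and 74548723. *Tox* measured 7.22 and 3.37 TPM, the length-scaled abundance that RSEM gives, under EV RV against 69.1 and 56.9 TPM under Tox RV, so that every library lay on the side of its label. EV RV replicate 1 stood apart from the other libraries. It lay at -53.8 on the first principal component, which held 58.0% of the variance, against 5.70 to 25.8 for the other 3, and the 45S pre-ribosomal RNA took 24.75% of its counts against 7.14% to 11.97%. Of the markers of CD4 T cells, all 6 were tested, *Cd3d* was at 341 to 397 TPM and *Cd4* at 174 to 250 TPM. In counts scaled by library (CPM), *Cd3d*, *Cd3g* and *Cd4* were higher in each Tox RV library than in either EV RV library. By the same measure *Cd3e*, *Cd28* and *Thy1* overlapped and were highest in EV RV replicate 1. In TPM *Cd3d* and *Cd3g* overlapped as well. For *Cd3g* the CPM of Tox RV replicate 2 was 317.8, against 316.8 in EV RV replicate 1. *Cd3e* measured 285 and 88.7 TPM under EV RV against 108.9 and 85.7 TPM under Tox RV. *Cd8a* stayed between 0.82 and 1.15 TPM, *Ncr1* and *Ms4a1* were listed at 0 in every library, and *Lyz2* did not exceed 0.05 TPM. The summed TPM of the 4 NK cell markers was 53.8 and 9.79 under EV RV against 30.9 and 6.82 under Tox RV, nearly all of it *Klrd1* and *Klrk1*, and 3 of the 4 were tested. These NK markers and the 45S RNA were highest in the library that also stood apart for the genes below, and their part in those values was not tested. In sorted cells measured in bulk, fewer cells of a type and less RNA per cell cannot be told apart.

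All 8 genes were expressed in these cells, over a range of levels that spanned more than 2 orders of magnitude. *Ndfip1* was the most abundant, at a mean of 559 TPM over the 4 libraries, and it ranked above 98.7% of the genes tested. *Dgkz* followed at 213 TPM, *Cblb* at 121.9 TPM and *Dgka* at 102 TPM. *Cbl* (29.4 TPM), *Itch* (27.7 TPM) and *Nedd4* (25.5 TPM) formed a group of like level, and *Rnf128* was lowest at 3.13 TPM, above 30.1% of the genes tested. Across libraries, the values of *Ndfip1* did not overlap those of *Dgkz*, those of *Dgka* did not overlap those of *Cbl*, and those of *Nedd4* did not overlap those of *Rnf128*. The other neighbours in this order overlapped. Within each library, however, *Dgkz* exceeded *Cblb* and *Cblb* exceeded *Dgka* in 4 of 4 libraries, while *Cbl* exceeded *Itch* in 1 of 4 and *Itch* exceeded *Nedd4* in 3 of 4.

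**Figure D1:**
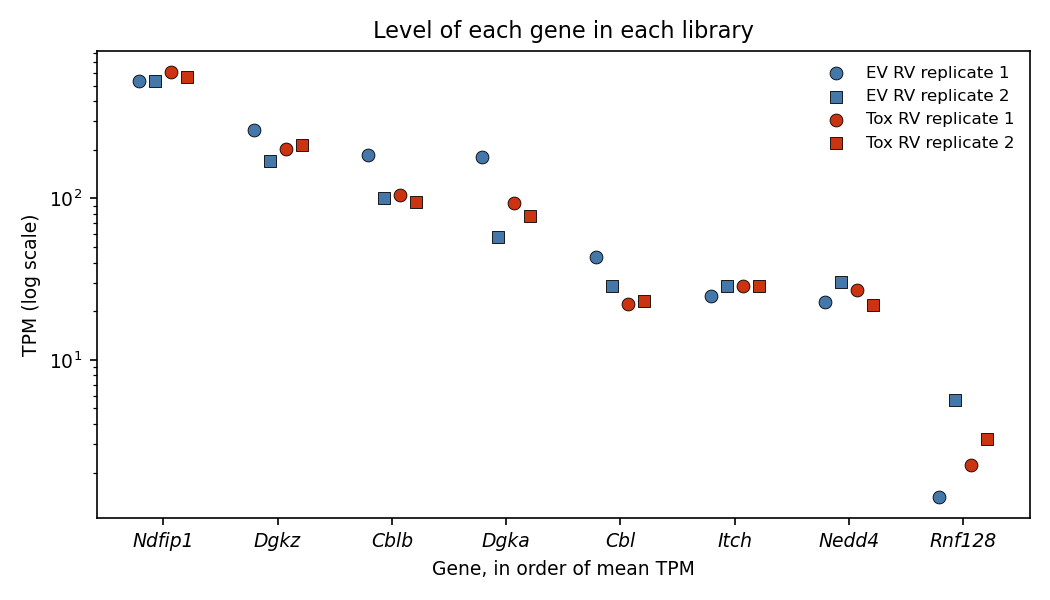
Level of each of the 8 genes in each library, with TPM on a log scale on the y axis and genes on the x axis in order of mean TPM. Each point is 1 library, blue for EV RV and red for Tox RV. The genes run from *Ndfip1*, at 533 to 607 TPM, to *Rnf128*, at 1.42 to 5.61 TPM, and EV RV replicate 1 is the highest point for *Dgkz*, *Cblb*, *Dgka* and *Cbl*.

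In all but *Cbl* and *Ndfip1*, the difference between the groups was smaller in size than that between the EV RV replicates. By the quasi-likelihood test of edgeR with Benjamini-Hochberg adjustment, 0 of the 8 genes had an adjusted p-value below 0.05, and neither did any other of the 14143 genes tested (0%). DESeq2 called 22 genes (0.121%), none of them among the 8. At an unadjusted p-value below 0.05 there was 1 of the 8, *Cbl*, against 512 genes (3.62%) among all those tested. *Cbl* was lower in Tox RV, as were 2.55% of all genes at that threshold, while 0 of the 8 and 1.07% of all genes were higher. The fold change was below 0 for 5 of the 8 and for 49.6% of all genes. In normalized counts the Tox RV pair was wholly above the EV RV pair for *Itch* and *Ndfip1* (2 of 8, against 18.6% of all genes) and wholly below it for *Cbl* (1 of 8, against 17.4%), so that 3 of 8 did not overlap, against 36.0% of all genes tested. The median log2 fold change of the 8 was -0.18 and their median size 0.26, against 0.0036 and 0.21 over all genes. The p-values measure the spread between libraries of different mice.

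EV RV replicate 1 held the extreme value of each of the 8 genes in CPM (counts relative to the TMM-scaled library total). It was the highest of the 4 libraries for *Cblb*, *Cbl*, *Dgka* and *Dgkz* and the lowest for *Rnf128*, *Itch*, *Nedd4* and *Ndfip1*. Over all genes tested it was the highest in 37.0% and the lowest in 37.0%. The EV RV pair was further apart than the Tox RV pair in 7 of the 8 genes, *Ndfip1* being the exception, against 72.6% of all genes. *Rnf128* and *Dgka* were the widest, with log2 differences between EV RV replicates 1 and 2 of -2.05 and 1.58, larger in size than those of 99.1% and 97.6% of the genes tested.

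**Figure D2:**
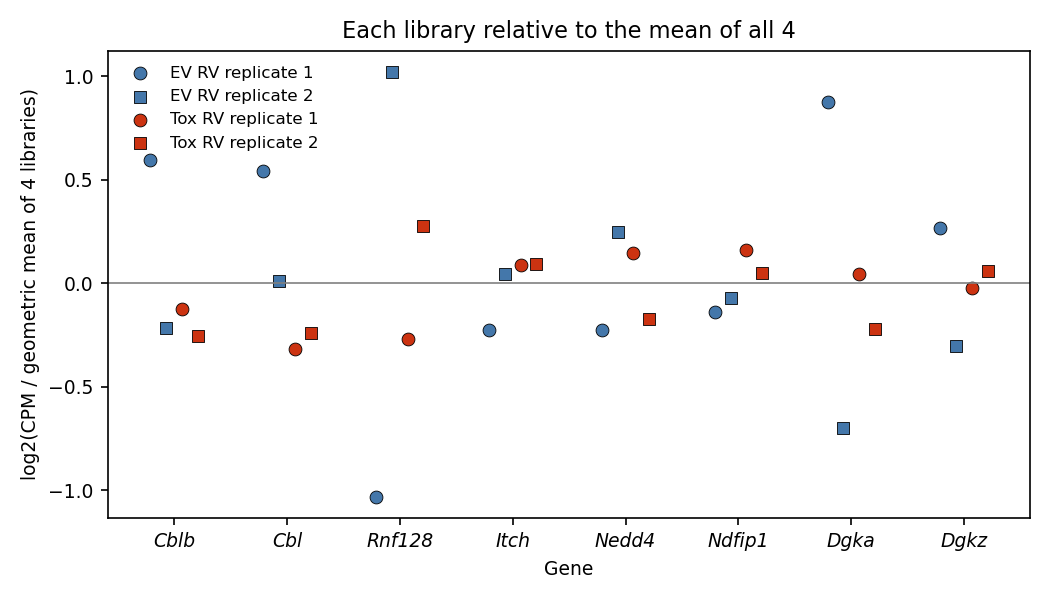
Each library relative to the mean of all 4, as log2 of its CPM over the geometric mean CPM of the gene, with genes on the x axis. Points are libraries, circles for replicate 1 and squares for replicate 2, blue for EV RV and red for Tox RV. The blue circle is the highest or the lowest point of every gene, and the 2 red points lie closer together than the 2 blue ones in all but *Ndfip1*.

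*Cbl* showed the largest separation of the groups. This gene, at 44142976 to 44234049 of chromosome 9 in mm10 (minus strand), encodes the RING ligase that marks activated receptor complexes for degradation. It measured 43.55 and 28.6 TPM under EV RV against 22.08 and 23.27 TPM under Tox RV. Both Tox RV libraries were thus below both EV RV libraries, and they differed from each other by much less than the EV RV libraries did. The log2 fold change, Tox RV minus EV RV, was -0.58 (standard error 0.22, 95% interval -1.13 to -0.027), with an unadjusted p-value of 0.0426 that ranked 427 of 14143 while its edgeR adjusted p was 0.897. DESeq2 gave -0.58 with an adjusted p-value of 0.9995. The direction was the same with each library left out. The value shrank to -0.30 without EV RV replicate 1, with EV RV replicate 2 as the lone control. It was -0.82 without EV RV replicate 2, with EV RV replicate 1 as the lone control.

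*Cblb*, the ligase whose loss frees T cells from the need for CD28 costimulation, lies on chromosome 16 from 52031225 to 52208048 (plus strand). Its level was 187 TPM in EV RV replicate 1 and 101 TPM in EV RV replicate 2, against 104 and 95.5 TPM in the Tox RV libraries. EV RV replicate 2 lay between the 2 Tox RV libraries, so that the groups overlapped and only EV RV replicate 1 was high. Tox RV minus EV RV gave -0.43 in log2 fold change (standard error 0.29, 95% interval -1.14 to 0.27, edgeR adjusted p = 0.897). It was 0.022 without EV RV replicate 1, with EV RV replicate 2 as the lone control. It was -0.78 without EV RV replicate 2, with EV RV replicate 1 as the lone control. The balance of the CBL genes varied less between the EV RV replicates than the levels did. *Cblb* made up 77.9% to 82.5% of the summed TPM of the CBL family in each library, *Cbl* 17.5% to 22.0%, and *Cblc*, which is known from epithelial tissue, had at most 0.03 TPM. The ratio of *Cblb* to *Cbl* in TPM was 4.29 and 3.54 under EV RV against 4.73 and 4.10 under Tox RV, a difference of 0.18 in log2 ratio (exact two-sided permutation test, p = 0.667, where 0.333 is the smallest p that 2 against 2 libraries allow). That difference was 0.32 without EV RV replicate 1 and 0.039 without EV RV replicate 2.

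*Rnf128*, on chromosome X from 139563316 to 139673145 (plus strand), encodes GRAIL, a membrane ligase of endosomes induced in anergic CD4 T cells. It was the least expressed of the 8 and the most variable. The level was 1.42 TPM in EV RV replicate 1 and 5.61 TPM in EV RV replicate 2, with both Tox RV libraries between them at 2.22 and 3.25 TPM, from rounded counts of 94, 703, 239 and 286. In log2 fold change the difference was -0.32 (standard error 0.64, 95% interval -1.89 to 1.26, edgeR adjusted p = 0.932). It was -1.002 without EV RV replicate 1 (unadjusted p = 0.0107, where 7.49% of all genes lay below 0.05) and 1.06 without EV RV replicate 2, so that its direction depended on which EV RV library stood as the control.

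Among the enzymes, the HECT ligases differed least between the EV RV replicates. *Itch* (chromosome 2, 155133509 to 155226855, plus strand), whose loss in mice gives an itching inflammatory disease with excess Th2 cytokines, was at 24.9 and 28.61 TPM under EV RV against 28.55 and 28.66 TPM under Tox RV. All libraries but EV RV replicate 1 lay within 0.11 TPM of each other, and the groups, which did not overlap in CPM, overlapped in TPM. Its difference was 0.17 in log2 fold change (standard error 0.18, 95% interval -0.26 to 0.61, edgeR adjusted p = 0.897). Dropping EV RV replicate 1 gave 0.038 and dropping EV RV replicate 2 gave 0.32 (edgeR adjusted p = 0.160). *Nedd4* (chromosome 9, 72662346 to 72749852, plus strand), the founding member of the family, was at 22.9 and 30.2 TPM under EV RV against 27.2 and 21.8 TPM under Tox RV. The replicates within each group were further apart than the groups, which differed by a log2 fold change of -0.037 (95% interval -0.60 to 0.53). The ratio of *Itch* to *Nedd4* in TPM stayed near equality, at 1.09 and 0.949 under EV RV against 1.05 and 1.31 under Tox RV. The log2 ratio differed by 0.21 (exact two-sided permutation test, p = 0.667), and by 0.048 to 0.37 when single libraries were dropped, the extremes being without Tox RV replicates 2 and 1.

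*Ndfip1*, the adaptor that T cells need to keep ITCH active, was the gene with the closest agreement between EV RV replicates, at 535 and 533 TPM. The Tox RV libraries were at 607 and 562 TPM, both above both EV RV libraries. In normalized counts the difference was 0.21 on the log2 scale, or 1.16-fold (standard error 0.16, 95% interval -0.19 to 0.61, edgeR adjusted p = 0.897). Leaving out each library in turn gave 0.15 to 0.27, so that it kept its direction but never reached the threshold. *Ndfip1* gave 93.0% to 93.8% of the summed TPM of the NDFIP adaptors in every library, the rest being *Ndfip2* at 35.4 to 41.8 TPM.

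Of *Dgka* and *Dgkz*, *Dgka* moved more with the choice of control. It lies on chromosome 10 from 128720134 to 128744855 (minus strand), is high in resting T cells and is known to fall on activation. The TPM was 180 in EV RV replicate 1 and 57.5 in EV RV replicate 2, and the Tox RV libraries lay between them at 93.3 and 77.5. With all 4 libraries the log2 fold change was -0.37, with a wide interval (standard error 0.49, 95% interval -1.58 to 0.83, edgeR adjusted p = 0.905). It turned to 0.61 without EV RV replicate 1 (unadjusted p = 0.0116, adjusted p = 0.522) and to -0.95 without EV RV replicate 2 (adjusted p = 0.0436). The fit without EV RV replicate 2 rests on EV RV replicate 1 as the lone control, assumed to vary like the Tox RV libraries, and it called 600 genes (4.16%), among them *Dgka*, *Cblb* and *Cbl*.

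*Dgkz* (chromosome 2, 91932824 to 91975864, minus strand), the isoform with the larger part in restraining Ras signalling in T cells, was at 266 and 172 TPM under EV RV against 202 and 213 TPM under Tox RV. The Tox RV libraries again lay inside the range of the EV RV libraries. The fitted log2 fold change was 0.0082 (standard error 0.23, 95% interval -0.56 to 0.58, edgeR adjusted p = 0.996). Among the 10 diacylglycerol kinase genes, *Dgkz* gave 49.9% to 59.8% of the summed TPM and *Dgka* 19.0% to 33.9%, with *Dgkd* next at 11.1% to 15.7%. The ratio of *Dgkz* to *Dgka* in TPM was 1.47 and 2.98 under EV RV against 2.16 and 2.75 under Tox RV, with the Tox RV values inside the range of the EV RV values. The log2 ratio differed by 0.22, by -0.29 without EV RV replicate 1 and by 0.73 without EV RV replicate 2, so that its direction depended on the control. RSEM's mean transcript length of *Dgkz*, which moves with the mix of its 2 listed transcripts, was 3643 bases in EV RV replicate 1 and 3607 to 3612 bases in the other libraries.

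**Figure D3:**
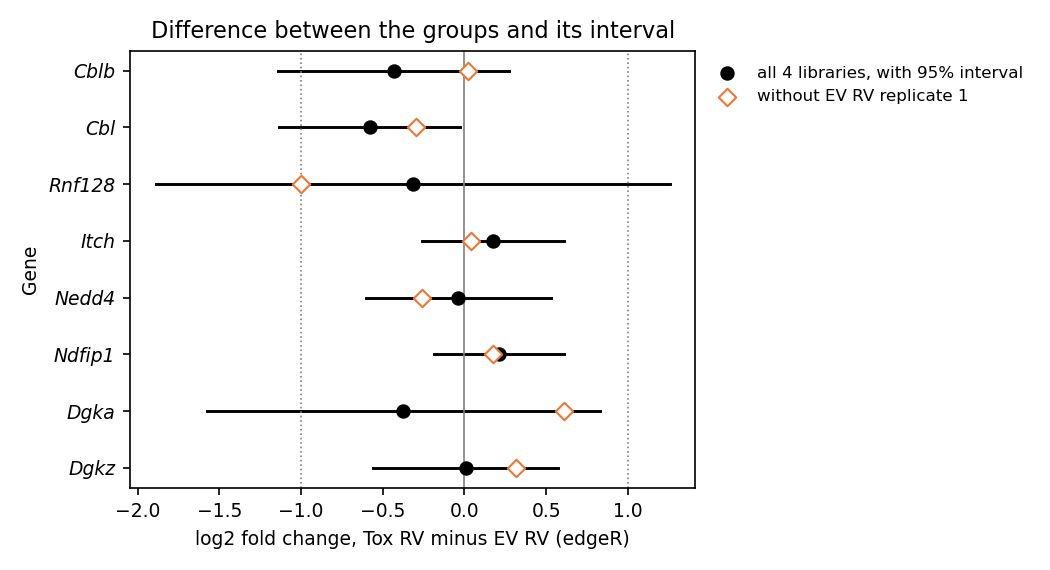
Difference between the groups for each of the 8 genes, as the log2 fold change of Tox RV minus EV RV on the x axis, from edgeR's quasi-likelihood fit. Filled points with lines give the value and its 95% interval from all 4 libraries, open diamonds the value without EV RV replicate 1, and dotted lines mark a 2-fold difference. The intervals of *Itch*, *Nedd4*, *Ndfip1* and *Dgkz* lie inside the dotted lines, and the diamonds of *Cblb* and *Dgka* lie on the other side of 0 from the filled points.

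The width of the intervals sets what these libraries can show. For *Itch*, *Nedd4*, *Ndfip1* and *Dgkz* the 95% interval excluded a 2-fold difference in either direction, as it did for 61.2% of all genes tested. For *Cblb*, *Cbl*, *Rnf128* and *Dgka* a 2-fold decrease remained inside the interval, and for *Rnf128* a 2-fold increase did as well. *Dgka* shares 105 exon bases with *Pmel* on the other strand, and use of strand in the counting is not stated. *Pmel* had 125 to 291 expected counts and *Dgka* 7037 to 12250 rounded counts. Whether the shared bases moved either value was not tested. *Dgkz* shares 222 exon bases with *Gm9821*, a protein-coding gene on the other strand that is not listed in the counts used. A stretch of 225 bases is 100% identical between them. A stretch of 559 bases of *Itch* is 95.9% identical to *Gm16223*, which had 25.4 to 40.6 expected counts. *Nedd4* (3084 to 7727 rounded counts) shares 200 bases at 96% identity with *Eapp* (1026 to 1860 expected counts). It shares 202 bases at 95.1% with *Rrm2b* (563 to 1115 expected counts) and 200 bases at 96% with *Wdcp*, which is not listed. *Cbl* shares stretches of 230 to 304 bases at 95.1% to 97.9% identity with 13 other annotated genes. None of these is listed under its name in the counts used. How reads from such shared stretches were assigned was not tested.

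The promoters of the 3 genes at the extremes of these comparisons are shown. *Cbl* had the largest separation of the groups, and *Rnf128* and *Dgka* had the widest EV RV replicates. Each line gives the 250 bases before a listed start of transcription, 5′ to 3′ on the strand of the gene, from RefSeq on GRCm38.p6. They lie at chr9:44234047-44234296 (minus strand) for *Cbl*, at chr10:128745085-128745334 (minus strand) for the outermost of the starts listed for *Dgka*, and at chrX:139610370-139610619 (plus strand) for *Rnf128*, where the start used lies inside the gene span given above. Capitals mark the core of the NFAT site, GGAAA or its reverse complement TTTCC. NFAT is the calcineurin-activated factor known to drive anergy genes such as *Rnf128* and *Cblb*.
Cbl: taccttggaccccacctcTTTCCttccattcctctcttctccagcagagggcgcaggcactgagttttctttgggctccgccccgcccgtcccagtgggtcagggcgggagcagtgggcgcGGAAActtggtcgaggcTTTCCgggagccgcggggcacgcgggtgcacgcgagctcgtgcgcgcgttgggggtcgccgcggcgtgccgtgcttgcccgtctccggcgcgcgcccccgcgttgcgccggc
Dgka: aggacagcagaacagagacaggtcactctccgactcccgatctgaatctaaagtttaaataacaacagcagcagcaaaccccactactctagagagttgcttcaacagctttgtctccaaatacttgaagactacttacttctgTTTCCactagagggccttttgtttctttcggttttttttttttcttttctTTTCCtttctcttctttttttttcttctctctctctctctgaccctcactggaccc
Rnf128: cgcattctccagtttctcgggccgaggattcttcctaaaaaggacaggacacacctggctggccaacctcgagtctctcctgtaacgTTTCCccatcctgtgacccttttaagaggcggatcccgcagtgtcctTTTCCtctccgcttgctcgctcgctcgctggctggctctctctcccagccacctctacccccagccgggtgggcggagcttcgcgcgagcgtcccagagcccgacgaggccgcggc
The core was found 3 times before *Cbl* and 2 times each before *Dgka* and *Rnf128*, but so short a motif is common, and 55.6% of 32851 windows of this length held it on either strand. Over the 11 windows examined, which belong to 6 of the 8 genes, 8 held the core. The windows are not all separate promoters, since some of *Dgka* overlap. Some lie partly or wholly in annotated exons, as all 250 bases do for *Cblb*. No window of *Itch* or *Ndfip1* was examined, so these counts do not cover them. The FOXO site TGTTTAC (3.17% of all windows) and the EGR site GCGTGGGCG (0.536%) were in 0 of the 11, and the AP-1 site TGANTCA (6.75%) was in 1. That window lies before a second start of *Nedd4*, and all of its 250 bases are annotated exon. A match is a description of these letters and not of binding.

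Lists of related genes were taken by their known roles, and 0 of their members passed an adjusted p-value of 0.05 in edgeR or in DESeq2. Unadjusted p-values in these lists are from edgeR unless DESeq2 is named, and 3.62% of all genes tested lay below 0.05 in edgeR. Of the other NEDD4 family genes, 7 of 8 were tested and 0 passed an unadjusted p-value of 0.05. *Nedd4l*, a relative best known for removing sodium channels, was lowest in p (0.0803) at 1.96 and 2.37 TPM under EV RV against 1.36 and 1.58 TPM under Tox RV, with a log2 fold change of -0.48, which was -0.65 and -0.29 when EV RV replicates 1 and 2 were dropped. *Ndfip2* had a log2 fold change of 0.21, which was 0.082 without EV RV replicate 1 and 0.35 without EV RV replicate 2. Of the other diacylglycerol kinases, 6 of 8 were tested, 0 passed an unadjusted p-value of 0.05 and their median log2 fold change was -0.18. *Dgkd*, the most abundant, had a log2 fold change of -0.18, which was -0.064 without EV RV replicate 1, and *Dgkk*, with -1.13, was at 0.02 to 0.1 TPM.

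Downstream of diacylglycerol, 12 of 13 genes were tested, and 1 of them, *Prkca*, was lower and 0 higher at an unadjusted p-value of 0.05. Over all genes tested 2.55% were lower and 1.07% higher at that threshold. *Prkca* encodes protein kinase Cα, a kinase that diacylglycerol activates. It was at 25.6 and 27.0 TPM under EV RV against 13.0 and 17.2 TPM under Tox RV. Its groups did not overlap, as in 36.0% of all genes tested in CPM. Its log2 fold change was -0.72 (standard error 0.20, unadjusted p = 0.0124, edgeR adjusted p = 0.897), and it lay between -0.93 and -0.54 when single libraries were dropped. *Rasgrp2*, an exchange factor for Rap, had the next smallest p (0.0805 in edgeR, 0.0469 unadjusted in DESeq2). It was at 11.5 and 6 TPM under EV RV against 13.0 and 12.6 TPM under Tox RV. Its log2 fold change of 0.65 was 1.13 without EV RV replicate 1 and 0.29 without EV RV replicate 2. *Prkch*, the most abundant at 168 to 264 TPM, had a log2 fold change of 0.11.

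Among the partners and substrates of the CBL proteins, 12 of 13 were tested, and 2 were higher and 0 lower at an unadjusted p-value of 0.05. Over all genes tested 1.07% were higher and 2.55% lower at that threshold. *Vav1*, the exchange factor that CBL-B restrains, was at 52.8 and 47.7 TPM under EV RV against 75.1 and 66.3 TPM under Tox RV (log2 fold change 0.58, standard error 0.17, unadjusted p = 0.0143, edgeR adjusted p = 0.897). *Sla2*, an adaptor that brings CBL to the receptor complex, was at 34.6 and 27.7 TPM under EV RV against 49.1 and 39.9 TPM under Tox RV (log2 fold change 0.60, standard error 0.20, unadjusted p = 0.0237). In both genes the groups did not overlap, as in 36.0% of all genes tested in CPM. *Sla*, the related adaptor and the most abundant of the list, was at 284 and 298 TPM under EV RV against 348 and 325 TPM under Tox RV, for a log2 fold change of 0.28 (unadjusted p = 0.131). The median log2 fold change of the list was 0.17. Of the 12, 8 were above 0 and 4 below, where 49.6% of all genes tested were below 0.

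A list of other ubiquitin ligases and deubiquitinases was tested in full, 11 of 11, and 0 passed an unadjusted p-value of 0.05. *Usp8*, a deubiquitinase that acts on GRAIL, had a log2 fold change of 0.21, *Traf6* -0.20 and *Tnfaip3*, the most abundant at 53.5 to 113 TPM, -0.11. Dropping EV RV replicate 1 gave -0.091 for *Traf6* and 0.47 for *Tnfaip3*. The transcription regulators of anergy gave 0 of 9 in edgeR. In DESeq2 *Nfatc2*, lower in Tox RV, and *Nr4a1*, higher, had unadjusted p-values of 0.0341 and 0.0335, among 619 genes below 0.05. Both had a DESeq2 adjusted p-value of 0.9995. *Nr4a1* was at 60.4 and 24.1 TPM under EV RV against 81.6 and 54.8 TPM under Tox RV (log2 fold change 0.79), with groups that overlapped. *Nfatc2*, the NFAT member most closely tied to anergy, was at 35.5 and 16.1 TPM under EV RV. Its Tox RV libraries were at 16.4 and 12.5 TPM (log2 fold change -0.74, edgeR unadjusted p = 0.0975). That fold change was -0.11 without EV RV replicate 1 and -1.17 without EV RV replicate 2. *Egr2*, which is known to induce *Cblb*, was at 62.0 and 61.7 TPM under EV RV against 82.5 and 66.9 TPM under Tox RV (log2 fold change 0.36, unadjusted p = 0.1003), and *Ikzf1*, the most abundant, had a log2 fold change of 0.29. Dropping single libraries gave 0.19 to 0.50 for *Egr2*, the extremes being without Tox RV replicates 1 and 2, and 0.079 to 0.54 for *Ikzf1*, without EV RV replicates 2 and 1.

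Of 5 known substrates of ITCH and NDFIP1, *Jun* alone passed an unadjusted p-value of 0.05, as did 3.62% of all genes tested. This AP-1 subunit was at 85.2 and 53.0 TPM under EV RV against 34.5 and 33.9 TPM under Tox RV. Both Tox RV libraries were below both EV RV libraries, as in 17.4% of all genes tested in CPM, and close to each other. The fit gave a log2 fold change of -0.92 (standard error 0.24, unadjusted p = 0.00918, edgeR adjusted p = 0.897, DESeq2 adjusted p = 0.255). Leaving out 1 library at a time gave -1.19 to -0.59. The first of these is without EV RV replicate 2, with EV RV replicate 1 as the lone control. The last is without EV RV replicate 1, with EV RV replicate 2 as the lone control. *Junb*, the substrate through which ITCH limits Th2 cytokines, was at 307 and 305 TPM under EV RV against 360 and 288 TPM under Tox RV, for a log2 fold change of 0.17 (unadjusted p = 0.405).

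**Figure D4:**
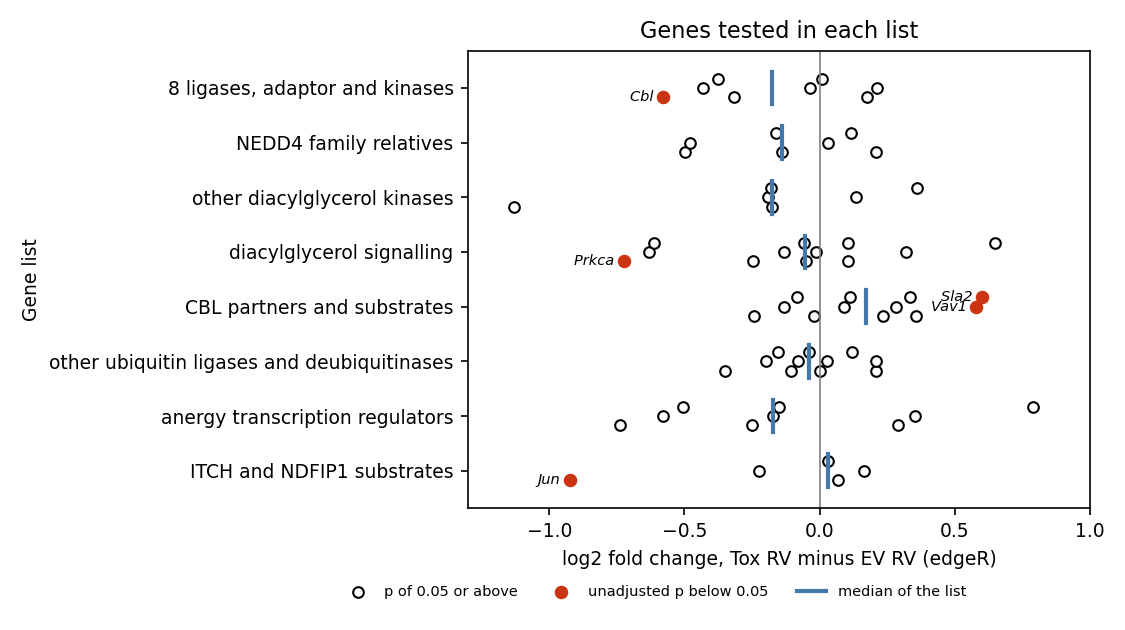
Log2 fold change of Tox RV minus EV RV (x axis) for every gene tested in each list (y axis). Points are genes, filled where the unadjusted p-value is below 0.05, and blue bars are list medians. The list medians run from -0.18 to 0.17, and 5 genes are filled, *Cbl*, *Prkca*, *Sla2*, *Vav1* and *Jun*.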

How the data were processed

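The authors aligned the reads with bowtie1 to mm10 transcripts and quantified genes with RSEM, 1 library per file. Versions and the use of strand are not given in the sources used here. The deposited expected counts are RSEM's estimated counts per gene and were not normalized. The TPM and FPKM values were deposited as RSEM computed them. One more deposited table covers all samples and is named for TPM, but its column sums are too low for that unit, and it was not used.

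Rounded expected counts were fitted by edgeR 4.0.16 (R 4.3.3): filterByExpr (minimum count 10), TMM, glmQLFit and glmQLFTest over all 4 libraries without a block, with Benjamini-Hochberg adjustment over 14143 genes. Intervals came from the quasi-likelihood F statistic. DESeq2 1.42.0, the tool of the study, and limma 3.58.1 on log2(TPM + 1) and log2(TPM + 0.1) were alternatives. Depth was 46989997 to 74548723 expected counts. The tests were tried on simulated data, where replicates of a group shared a mean for each gene. No simulated library stood apart as EV RV replicate 1 did. Promoters came from RefSeq and positions from GENCODE M21, both on GRCm38. The 8 genes and the lists were chosen with earlier results of these data known. Other named genes were the 2 with the smallest p and the most abundant of each list, and *Tox*. *Nr4a1* was named for its DESeq2 p-value.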

Additional observations from a re-analysis of the deposited data

How the results depend on the processing

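With 2 libraries a group, single libraries decided much, and the cause was not tested. The count of genes with an adjusted p-value below 0.05, 0 in edgeR, was 22 with DESeq2, 22 without the filter on low counts, 16 with the replicate block and 1 to 600 with each library left out, the 600 without EV RV replicate 2. The count at an unadjusted p-value below 0.05, 512, was 996 without the filter, 1232 with the replicate block and 324 to 4281 with each library left out. Replicate numbers are not known to mark a mouse. The samples share only a number, and the deviations of same-numbered libraries correlated at 0.302. Of the 8 genes, 0 were called under the block, where *Cbl* had a log2 fold change of -0.56, *Dgka* of -0.18 and *Rnf128*, which moved most, of -0.031. The count of the 8 with an unadjusted p-value below 0.05, 1, fell to 0 with scaling by library totals and with limma on log2(TPM + 0.1), and was 0 to 5 with each library left out.

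Scaling by library totals moved the median log2 fold change of all genes to 0.124, and with it *Nedd4* to 0.068 and *Tnfaip3* to 0.045. With limma on log2(TPM + 1) and log2(TPM + 0.1) *Dgkz* was at -0.040 on both scales and *Rnf128* at -0.11 and -0.080. With each library left out the log2 fold change ran from -0.78 to 0.022 for *Cblb*, from -0.82 to -0.30 for *Cbl*, from -1.002 to 1.06 for *Rnf128*, from -0.26 to 0.23 for *Nedd4*, from -0.95 to 0.61 for *Dgka*, from -0.24 to 0.31 for *Dgkz*, from -0.15 to 0.41 for *Prkch*, from -0.51 to 0.47 for *Tnfaip3* and from -0.012 to 0.32 for *Junb*. Each value with a library left out rests on 1 remaining library of that group, assumed to vary like the libraries of the other group. Of the 8 genes, *Itch*, *Ndfip1* and *Cbl* kept their direction under every alternative run. *Dgkk* gave no value without the 45S RNA or without EV RV replicate 2.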

Other observations

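Some genes of the related lists were highest in EV RV replicate 1 in the same way as *Dgka* and *Cblb*. In CPM 37.0% of all genes tested were highest in that library. The genes named here were picked after their values were seen and are given as values only. *Prkd2*, a kinase activated by diacylglycerol, was at 53.1 TPM in that library and at 14.6 to 23.0 TPM in the other 3. *Foxo1*, a factor of resting T cells, was at 51.4 TPM against 22.7 to 26.9 TPM. *Nfatc1* was at 124 TPM against 45.6 to 77.1 TPM, and *Jak1*, a kinase whose degradation NDFIP1 promotes, at 133 TPM against 60.3 to 82.9 TPM. The Tox RV libraries lay below EV RV replicate 1 in each of these genes, which follows from picking genes highest in that library.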
